A study of Mus musculus with 2 samples.

Results

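Erythroid and haemoglobin transcripts were examined in the liver of apoE-KO mice as a measure of the blood that each liver sample held. The members were 5 genes chosen by name, Hba-a1, Hbb-b1, Hbb-bh1, Alas2 and Slc4a1, of 27962 gene names on the array, and they were represented by 10 probes. All mice were males of the C57BL/6 strain without apolipoprotein E. From an age of 10 weeks, 1 group stayed on normal chow and the other received this chow with 1.25% Chol added (high-Chol diet), and the comparison was made after 1 week. Liver RNA was measured on one-colour Agilent arrays in 3 independent experiments per diet, so each diet had n = 3 arrays. All 3 normal chow arrays and high-Chol replicate 1 lay on 1 slide, and high-Chol replicates 2 and 3 lay on another. Replicate numbers were assigned here in order of slide and position, so they only name the arrays and do not pair the diets. Whether the livers were perfused, or RNA of several mice pooled, is not given in the sources used here.

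Red cells carry haemoglobin, a tetramer of alpha and beta globin chains that each hold a haem group. Circulating mammalian red cells have lost their nucleus, and young red cells (reticulocytes) still hold globin mRNA. The adult liver no longer makes red cells under normal conditions, whereas the fetal liver does, so adult globin mRNA in a liver extract is commonly read as a sign of blood left in the vessels. Hba-a1 encodes an adult alpha chain and Hbb-b1 an adult beta chain. Hbb-bh1 encodes a beta-like chain of embryonic red cells. Alas2 is the erythroid form of the enzyme that starts haem synthesis, and Slc4a1 (band 3) is the anion exchanger of the red cell membrane.

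Of the 10 probes, 2 belonged to Hba-a1, 4 to Hbb-b1, 2 to Hbb-bh1 and 1 each to Alas2 and Slc4a1. The array annotation (mm7) placed the Hba-a1 probes on chromosome 11, at chr11:32235785-32235966 for A_52_P278538 and chr11:32235937-32235996 for A_52_P208681, both on the plus strand. The first span is longer than the 60-base probe. The brightest Hbb-b1 probe, A_51_P374476, was placed at chr7:99864305-99864363 on the minus strand, the Alas2 probe at chrX:145329125-145329184 on the plus strand, and the Slc4a1 probe at chr11:102457981-102458040 on the minus strand. The accession behind Hbb-b1 now carries the symbol Hbb-bt in RefSeq. The 4 probes below are shown because they make clear which adult globin signals were read from overlapping sequence, and therefore are not independent measurements of a gene. Capitals mark the 29 bases that both Hbb-b1 probes share, and, in the Hba-a1 pair, the 3 bases that differ within an overlap of 30 bases.
Hbb-b1 A_52_P260346: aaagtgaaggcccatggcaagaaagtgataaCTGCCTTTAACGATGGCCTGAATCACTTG
Hbb-b1 A_51_P374476: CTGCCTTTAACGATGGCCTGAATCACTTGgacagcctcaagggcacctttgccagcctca
Hba-a1 A_52_P278538: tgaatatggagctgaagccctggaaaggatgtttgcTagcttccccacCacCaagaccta
Hba-a1 A_52_P208681: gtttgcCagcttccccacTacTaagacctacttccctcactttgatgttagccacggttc

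Adult globins of one kind are nearly identical in sequence, and the array annotation listed the accession of a second adult beta globin for 2 of the 4 Hbb-b1 probes (A_52_P213909 and A_51_P374468). Values given for Hba-a1 and Hbb-b1 therefore cannot be assigned to a single gene copy.

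Adult alpha globin varied strongly between arrays of the same diet. Levels are given as log2 of the background-subtracted signal relative to the 75th percentile of the array, so that 0 is the 75th percentile. Hba-a1 (A_52_P278538) was 2.91, 3.40 and 4.67 on the 3 arrays from normal chow, against 4.35, 5.04 and 4.13 in those from the high-Chol diet. Normal chow replicates 1 and 2 were the lowest of the 6 arrays, whereas normal chow replicate 3 lay above high-Chol replicates 1 and 3, so the diets overlapped. The mean was 3.66 ± 0.91 in chow-fed mice, against 4.51 ± 0.47 in mice given Chol (SD, n = 3 each), a log2 difference of 0.85 (SE 0.46) or 1.80-fold. This difference did not pass the test (limma adjusted p = 0.326, 95% interval -0.25 to 1.94 in log2).

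Adult beta globin behaved alike. Hbb-b1 (A_51_P374476) was 3.92, 4.12 and 5.75 in chow-fed mice, against 5.27, 6.25 and 5.46 in mice given Chol. Again normal chow replicates 1 and 2 were the lowest, and normal chow replicate 3 was above high-Chol replicates 1 and 3. The mean was 4.60 ± 1.00 in chow-fed mice, against 5.66 ± 0.52 in mice given Chol (SD, n = 3 each), a log2 difference of 1.06 (SE 0.51) or 2.09-fold, with a limma adjusted p of 0.272 and a 95% interval of -0.14 to 2.26. Exact two-sided permutation tests over the arrays gave p = 0.3 for Hba-a1 and for Hbb-b1, where the smallest p that 3 against 3 arrays allow is 0.1.

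**Figure D1:**
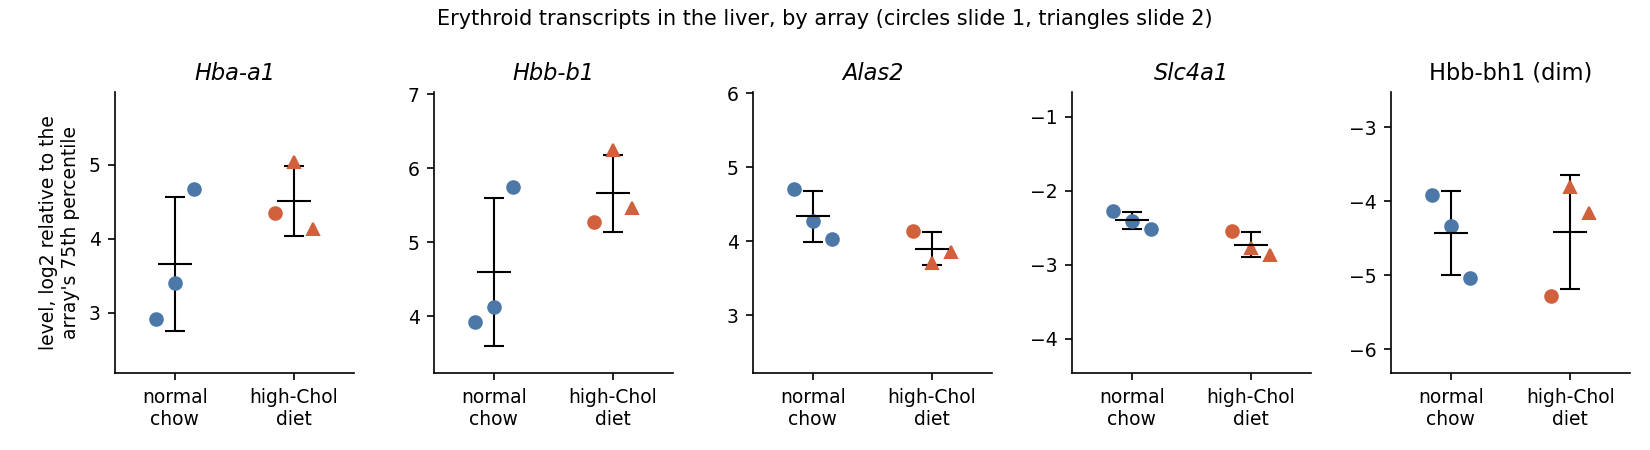
Level of the 5 erythroid genes on each array (log2 relative to the 75th percentile of the array; every panel spans the same range in log2). Points are arrays, horizontal bars the diet means and error bars the SD of 3 arrays; the 2 adult globins were spread most widely on normal chow, and Hbb-bh1 was not well above background on 3 of the 6 arrays.

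The adult globins were spread widely within a diet. Among the 3 normal chow arrays, Hba-a1 spanned 1.76 in log2, or 3.39-fold, and Hbb-b1 spanned 1.83, or 3.55-fold. Of 16435 genes with a value on all 6 arrays, 98.1% had a smaller SD than Hba-a1 on normal chow and 98.6% had a smaller SD than Hbb-b1. The median gene had an SD of 0.20 in chow-fed mice, against 0.25 in mice given Chol. Within the high-Chol group, where Hba-a1 spanned 0.91, the corresponding shares were 80.8% and 83.8%. Removal of single arrays moved the diet difference by more than 1.5 times: for Hba-a1 it was 0.47 without normal chow replicate 1 and 1.35 without normal chow replicate 3, and for Hbb-b1 it was 1.64 without normal chow replicate 3 (limma adjusted p = 0.565, 0.128 and 0.0874).

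All 6 adult globin probes were well above background on every array, and they varied together. After each probe was centred on its own mean, the mean over the 6 probes was -1.21 on normal chow replicate 1, -0.83 on replicate 2 and 0.57 on replicate 3, against 0.17, 1.06 and 0.23 on high-Chol replicates 1, 2 and 3. On a given array the centred probes had an SD of 0.07 to 0.20. Pearson's r between 2 probes over the 6 arrays was between 0.954 and 0.998 in the 15 pairs. The diet difference of single probes ranged from 0.75 (A_51_P374468) to 1.29 (A_52_P260346), and none passed the test.

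**Figure D2:**
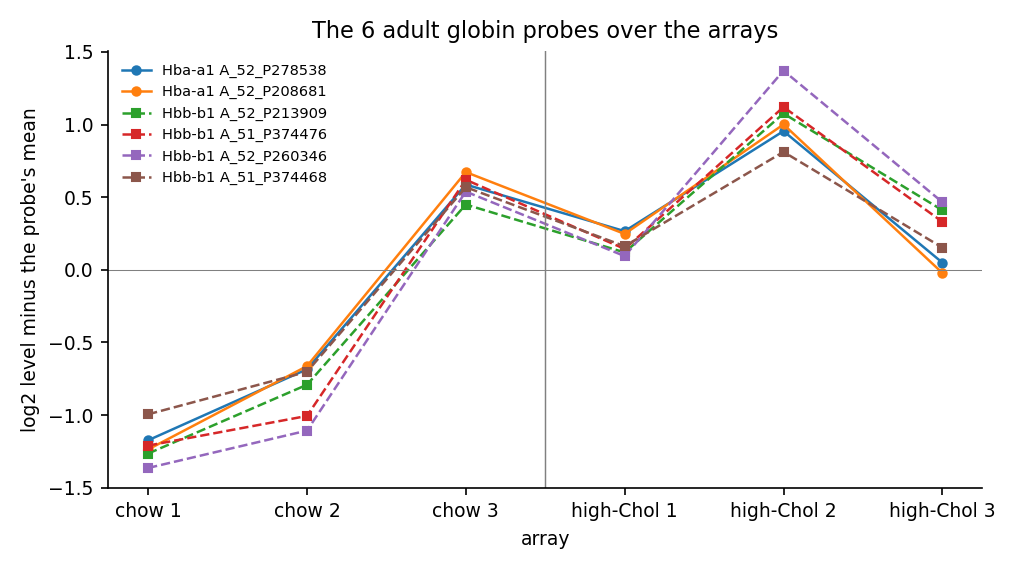
Level of each of the 6 adult globin probes on the 6 arrays, after subtraction of the mean of the probe (log2; a line joins the values of 1 probe and the arrays have no order within a diet). All probes were lowest on normal chow replicates 1 and 2 and highest on high-Chol replicate 2.

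A further probe with a haemoglobin alpha description followed the same arrays. LOC383229, annotated as similar to haemoglobin alpha, was -2.85, -2.79 and -2.00 in chow-fed mice, against -2.28, -1.04 and -1.87 in mice given Chol. Like Hba-a1 and Hbb-b1, it was lowest on normal chow replicates 1 and 2 and highest on high-Chol replicate 2, with a log2 difference of 0.81 (limma adjusted p = 0.254). This gene was named after its values were seen.

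Embryonic globins were near background or varied little. The Hbb-bh1 probe A_51_P179672 was well above background on 1 of 3 normal chow arrays and 2 of 3 high-Chol arrays, at -3.92, -4.33 and -5.04 and at -5.28, -3.81 and -4.16. The second Hbb-bh1 probe was not well above background on any array. Hbb-bh1 therefore failed the filter on dim probes and has no call. Hbb-y, the embryonic beta-like chain, was well above background on all 6 arrays, at -2.22, -2.44 and -2.21 in chow-fed mice, against -2.37, -2.16 and -1.82 in mice given Chol. It covered a narrow range, and the diets overlapped (log2 difference 0.17, SE 0.19, limma adjusted p = 0.603). Hba-x, the embryonic alpha-like chain, was not well above background on any array.

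Alas2 and Slc4a1 were lower in value in mice given Chol, which did not pass the test. Alas2 was 4.70, 4.28 and 4.03 in chow-fed mice, against 4.15, 3.70 and 3.86 in mice given Chol. Here normal chow replicate 1 was the highest and high-Chol replicate 2 the lowest, which is the reverse of the globins. The mean was 4.34 ± 0.34 in chow-fed mice, against 3.90 ± 0.22 in mice given Chol (SD, n = 3 each), a log2 difference of -0.44 (SE 0.22, limma adjusted p = 0.294, 95% interval -0.96 to 0.08). The diets overlapped, since normal chow replicate 3 was below high-Chol replicate 1 (exact permutation p = 0.2). Without normal chow replicate 1 the log2 difference was -0.25 (limma adjusted p = 0.507).

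Slc4a1 was dim but well above background on all 6 arrays, at -2.28, -2.42 and -2.52 in chow-fed mice, against -2.55, -2.77 and -2.87 in mice given Chol. All 3 high-Chol arrays were below all 3 normal chow arrays, although normal chow replicate 3 and high-Chol replicate 1, on the same slide, were close to each other. The mean was -2.40 ± 0.12 in chow-fed mice, against -2.73 ± 0.17 in mice given Chol (SD, n = 3 each), a log2 difference of -0.33 (SE 0.16, limma adjusted p = 0.279, exact permutation p = 0.1). Of all genes with 6 values, 14.0% were lower on the high-Chol diet without overlap and 11.9% were higher.

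Thus 0 of the 4 members tested passed an adjusted p of 0.05, against 2.92% of all genes (488 of 16727, 450 higher and 38 lower). Hba-a1 and Hbb-b1 were higher and Alas2 and Slc4a1 lower, where 47.8% of all genes were higher and 52.2% lower by any amount. Hba-a1 and Hbb-b1 were more than 1.5-fold higher, as were 15.4% of all genes, and 0 members were more than 1.5-fold lower, against 5.84%. With the scaling reported here, none of the 4 passed an unadjusted p of 0.05 either, which 12.3% of all genes did in the higher and 8.83% in the lower direction. With slide as a block, the log2 difference rested on high-Chol replicate 1 alone and was 0.69 for Hba-a1, 0.68 for Hbb-b1, -0.19 for Alas2 and -0.14 for Slc4a1, with adjusted p-values of 0.811, 0.828, 0.871 and 0.856. The same fit called 0.0658% of all genes. Within slide 1, high-Chol replicate 1 was above 2 of the 3 normal chow arrays for both adult globins, below 2 of 3 for Alas2 and below all 3 for Slc4a1.

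**Figure D3:**
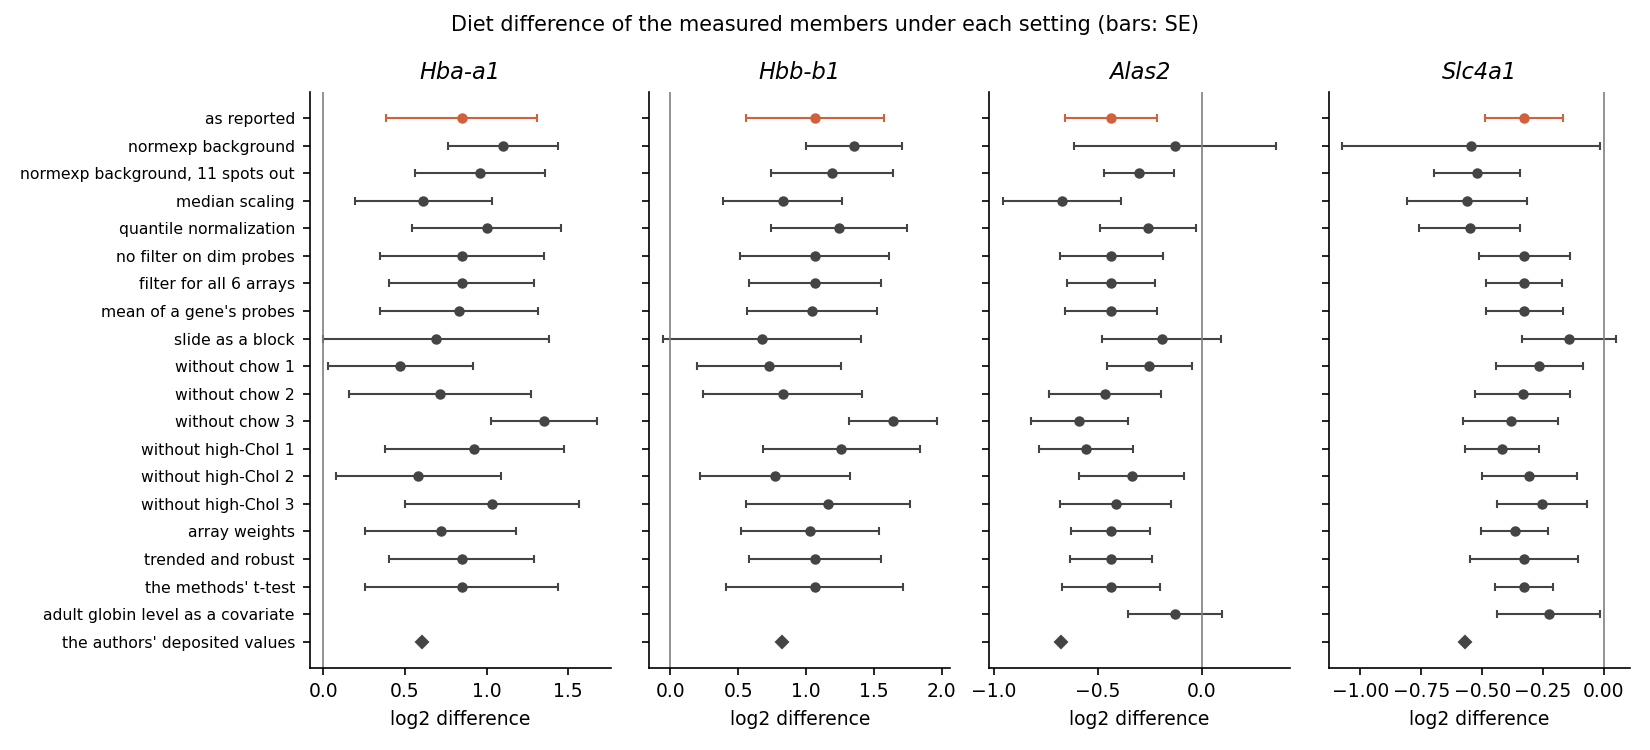
Log2 difference between the diets (high-Chol diet minus normal chow) of the 4 measured members under each processing setting. Circles are fitted differences with their SE, diamonds the difference of the authors' deposited values, which have no error, and the setting reported in the text is in orange; every difference kept its sign, and none passed an adjusted p of 0.05.

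Over the 6 arrays the levels of the members were compared in 6 pairs, with exact permutation tests adjusted over these pairs. These tests were not planned beforehand. They treat the 6 arrays as exchangeable, although diet and slide group them, and all genes of an array share its scaling. Hba-a1 and Hbb-b1 rose and fell together (Pearson's r = 0.980, permutation p = 0.00278, adjusted 0.0167; Spearman's rho = 0.943, permutation p = 0.0167, adjusted 0.05). Alas2 ran against Hba-a1 (r = -0.891, permutation p = 0.0167, adjusted 0.025; rho = -0.829, permutation p = 0.0583, adjusted 0.0875) and against Hbb-b1 (r = -0.907, permutation p = 0.00972, adjusted 0.0222; rho = -0.943, permutation p = 0.0167, adjusted 0.05). Alas2 and Slc4a1 ran together (r = 0.913, permutation p = 0.0111, adjusted 0.0222; rho = 0.886, permutation p = 0.0333, adjusted 0.0667). Slc4a1 did not pass the test against Hba-a1 (r = -0.701, permutation p = 0.124, rho = -0.6, permutation p = 0.242) or Hbb-b1 (r = -0.783, permutation p = 0.075, rho = -0.714, permutation p = 0.136).

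These relations depended to different degrees on the arrays with the least globin. Without the 2 arrays farthest from the median of Hba-a1, normal chow replicates 1 and 2, r with Hbb-b1 was 0.913 but r with Alas2 was -0.478, so that the latter rests on those arrays. In the same way r of Hbb-b1 was -0.777 with Alas2 and -0.243 with Slc4a1, and r of Hba-a1 with Slc4a1 turned to 0.135. Leaving out the 2 arrays farthest from the median of Alas2, normal chow replicate 1 and high-Chol replicate 2, gave r = 0.916 between Alas2 and Slc4a1. Within slide 1 alone, which holds 4 arrays, r of Hba-a1 was 0.987 with Hbb-b1, -0.924 with Alas2 and -0.938 with Slc4a1, and the 2 arrays of the other slide are too few for a value. After the diet means were subtracted, r of Hba-a1 was 0.971 with Hbb-b1, -0.831 with Alas2 and -0.481 with Slc4a1.

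**Figure D4:**
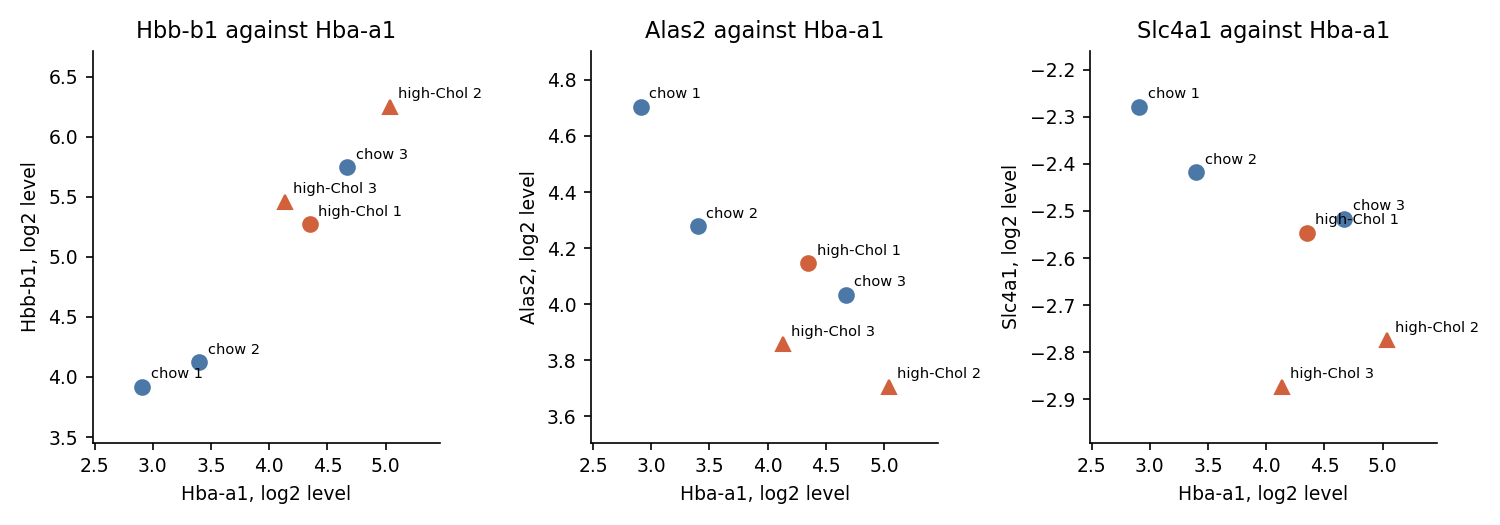
Levels of Hbb-b1, Alas2 and Slc4a1 against the level of Hba-a1 on the 6 arrays (log2 relative to the 75th percentile; circles slide 1, triangles slide 2, blue normal chow, orange high-Chol diet). Hbb-b1 rises with Hba-a1 (r = 0.980), whereas Alas2 falls (r = -0.891), and Slc4a1 is lowest on the 2 arrays of slide 2.

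The array with the least globin, normal chow replicate 1, also had the smallest share of spots well above background, 50.5% against 60.2% to 67.2% on the other arrays; its part in these patterns was not tested. The part of blood left in the liver in the globin levels was not tested either.

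The RefSeq sequence upstream of the globins and of Alas2, which ran against them over the arrays, is shown, since all are genes of red cell precursors. Each stretch is the 250 bases before the transcription start (GRCm38.p6), with capitals at every match, on either strand, to AGATAA or TGATAA (the core bound by GATA factors), CCACCC (bound by Klf1-like factors), CCAAT and TATAAA. The stretches lie at chr11:32283422-32283671 (plus strand), chr7:103813924-103814173 (minus strand) and chrX:150547167-150547416 (plus strand).
Hba-a1: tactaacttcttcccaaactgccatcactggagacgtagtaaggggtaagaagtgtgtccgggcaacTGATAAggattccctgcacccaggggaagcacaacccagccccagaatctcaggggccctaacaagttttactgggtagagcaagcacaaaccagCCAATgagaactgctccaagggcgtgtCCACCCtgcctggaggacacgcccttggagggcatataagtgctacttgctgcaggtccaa
Hbb-bt: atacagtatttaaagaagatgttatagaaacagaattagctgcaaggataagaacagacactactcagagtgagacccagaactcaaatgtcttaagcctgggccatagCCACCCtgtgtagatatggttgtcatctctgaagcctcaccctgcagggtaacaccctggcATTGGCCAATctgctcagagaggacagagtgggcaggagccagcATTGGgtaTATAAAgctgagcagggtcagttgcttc
Alas2: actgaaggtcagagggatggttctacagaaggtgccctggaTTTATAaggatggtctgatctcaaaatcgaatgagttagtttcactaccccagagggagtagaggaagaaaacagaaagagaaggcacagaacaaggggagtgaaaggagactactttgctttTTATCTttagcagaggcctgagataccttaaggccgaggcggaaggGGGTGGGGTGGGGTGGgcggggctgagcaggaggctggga

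Hba-a1 held TGATAA 183 bases and CCAAT 88 bases before the start, and Alas2 held AGATAA on the minus strand 86 bases before it. Hbb-bt held 3 matches to CCAAT, of which 2 on opposite strands adjoin, and TATAAA 28 bases before the start. CCACCC occurred once upstream of Hba-a1, once upstream of Hbb-bt and 3 times upstream of Alas2, where neighbouring matches share a base. Of 32851 promoters of this length, 16.6% held AGATAA or TGATAA, 28.1% CCACCC, 33.8% CCAAT and 12.4% TATAAA. Slc4a1 and Hbb-bh1 are named only.

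Other genes of the red cell lineage were examined in 6 lists, with 70 genes on the array, of which 54 passed the filter on dim probes. In these lists 0 genes were called in either direction by limma at an adjusted p of 0.05 (against 2.69% of all genes higher and 0.227% lower), and before adjustment, at 0.05, 5 of the 54 were higher and 6 lower, where 12.3% of all genes were higher and 8.83% lower. The median log2 difference over the 54 genes was -0.09, against -0.02 over all genes. Of the 70 genes, 9 were not well above background on any array, among them Rhd, Spna1 (erythroid alpha spectrin), Epb4.2, Eraf (which stabilizes free alpha globin) and Hemgn. Of the 19 genes of the membrane list, 6 were never well above background, while Slc4a1 and both adult globins were so on all 6 arrays. Rhd, Spna1, Epb4.2, Eraf and Hemgn were named after their values were seen.

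In the haem and iron list, 4 of 14 tested genes were higher and 10 lower in value, with Alad, an early enzyme of haem synthesis, at 5.18 ± 0.03 in chow-fed mice, against 4.73 ± 0.29 in mice given Chol (SD, n = 3; limma adjusted p = 0.225). Fech, which inserts iron to form haem, differed by -0.10 (SE 0.20, limma adjusted p = 0.776), and Blvrb by 0.55 (SE 0.23, limma adjusted p = 0.229). In the membrane list, 4 of 10 were higher and 6 lower in value, and the brightest were Aqp1, Cd59a and Tspan33, at differences of -0.20, -0.04 and -0.02. Of the 4 higher genes, Ank1, Epb4.9 and Add2 were well above background on 2 of the 3 normal chow arrays. They entered the fit only through the high-Chol group, as did Steap3 of the haem list and Slc14a1 of the enzyme list, both also higher. Ank1, Epb4.9, Add2, Steap3 and Slc14a1 were named after their values were seen. In the list of transcription factors and receptors, 6 of 10 were higher and 4 lower in value, and the brightest were Zfpm1, Ldb1 and Sox6, at 0.05, -0.53 and -0.48 (limma adjusted p = 0.908, 0.163 and 0.268). Klf1, Gata1 and Epor were named for their roles after their values were seen. Klf1, an activator of adult beta globin, was 0.71 lower in log2 with all 3 high-Chol arrays below all normal chow arrays, but did not pass the test (SE 0.26, limma adjusted p = 0.193). Gata1, the master regulator of erythroid genes, differed by -0.09 (SE 0.26, limma adjusted p = 0.863), and the erythropoietin receptor Epor by 0.13 (SE 0.20, limma adjusted p = 0.699). In the list of red cell enzymes, 5 of 16 were higher and 11 lower in value, with Gpx1, Cat and Prdx2 at -0.24, -0.22 and -0.10. Alad, Gpx1, Cat, Aqp1 and other genes of these lists are expressed by liver cells as well.

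A few red cell genes outside the naming rule, chosen after their values were seen, came closer to the threshold. Epb4.9 (dematin, an actin-bundling protein of the red cell cytoskeleton) was -4.34, -4.06 and -3.71 in chow-fed mice, against -3.22, -2.43 and -2.82 in mice given Chol (log2 difference 1.22, SE 0.26, limma adjusted p = 0.0604). The 2 diets did not overlap, but the probe was well above background on 2 of the 3 normal chow arrays and entered the fit only through the high-Chol group. Steap3, an iron reductase of red cell precursors, entered in the same way and differed by 0.91 (limma adjusted p = 0.0646), also without overlap. Ubadc1 was 0.75 lower in log2 on the high-Chol diet (SE 0.15, limma adjusted p = 0.0542), also without overlap.

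**Figure D5:**
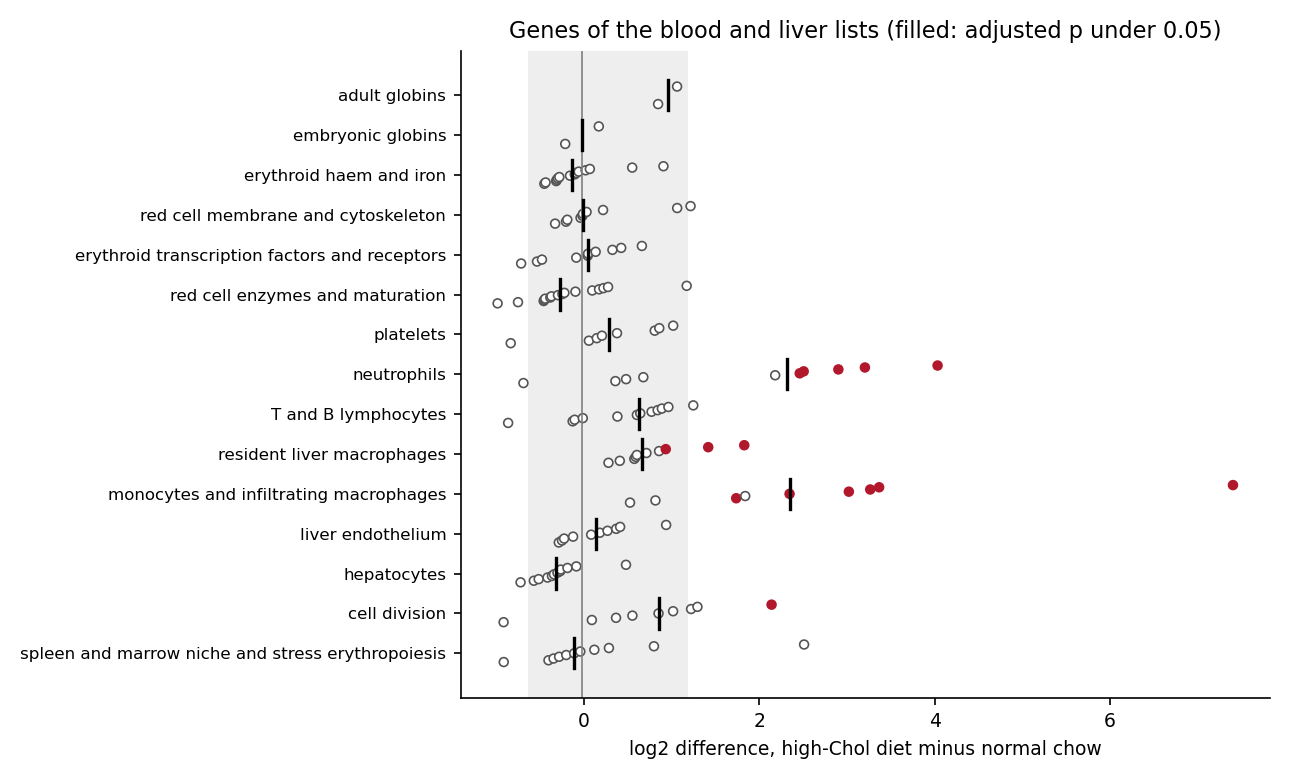
Log2 difference between the diets of each tested gene in the 6 red cell lists, 8 lists of other blood and liver cells and of cell division, and a list of niche and stress genes. Black bars are list medians, the grey band spans the 5th to the 95th percentile of all genes (-0.62 to 1.18) and red points passed an adjusted p of 0.05; 0 genes of the red cell lists passed, against 5 of the neutrophil list and 6 of the monocyte list, of which 1 and 4 were not well above background on every normal chow array.

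Markers of other blood cells were set beside the globins, since blood in a sample would bring them as well. In bulk liver, fewer cells of a type and less RNA per cell cannot be told apart. Of the platelet list, 8 of 13 genes were tested and 0 called, with a median log2 difference of 0.29. Cxcl4 (platelet factor 4, now Pf4), stored in platelet granules, was -2.39, -2.23 and -0.73 in chow-fed mice, against -1.28, -0.62 and -1.03 in mice given Chol. Its low arrays were those with little globin (r = 0.966 with Hba-a1), and its log2 difference was 0.81 (SE 0.44, limma adjusted p = 0.327). It was the 1 gene with r above 0.9 among the 5 platelet genes measured on every array, whose median r was 0.546, against -0.105 over all such genes. Itgb3, an integrin chain and the brightest of the list, differed by -0.83 in log2 without overlap (limma adjusted p = 0.236) and had r = -0.375 with Hba-a1. Among genes well above background on all arrays, 0.613% had r above 0.9 with Hba-a1. The platelet receptor genes Gp1ba and Gp6 were not well above background on any array.

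Of the 7 neutrophil markers measured above background on every array, the median r with Hba-a1 was 0.6, against -0.105 over all genes so measured. It was similar for liver macrophages, at 0.511 in the resident list and 0.543 in the monocyte and infiltrating macrophage list. Of 10 tested, 5 were called higher on the high-Chol diet (S100a8, S100a9, Lcn2, Chi3l3 and Retnlg) and 0 called lower, against 2.69% and 0.227% of all genes. Which cells made these transcripts was not tested. By value 9 of the 10 genes were higher, and Prtn3, a protease of neutrophil granules, differed by -0.69 without overlap (limma adjusted p = 0.166). Retnlg was not well above background on any normal chow array and entered the fit only through the high-Chol group, while the other 4 called genes were measured on all 6 arrays. Ltf and Mmp9, also among the 9 higher genes, were well above background on 1 normal chow array and entered in the same way. They were named after their values were seen. S100a8, a calcium-binding protein of neutrophil granules and cytosol, was -3.04, -2.68 and -3.17 in chow-fed mice, against -0.11, 0.82 and 0.02 in mice given Chol. The 3 high-Chol arrays were above the 3 normal chow arrays. The log2 difference was 3.21 (SE 0.28, limma adjusted p = 0.00552), and a block for slide gave 2.85 (adjusted p = 0.0830). With that block, which rests on high-Chol replicate 1 alone, S100a9, Lcn2, Chi3l3 and Retnlg differed by 2.83, 3.67, 3.47 and 1.80 in log2. Most of the called list genes did not pass the test in that fit. The summed level of the tested neutrophil genes, in multiples of the 75th percentile, was 2.85 to 2.95 on normal chow and 16.4 to 22.1 on the high-Chol diet. For the adult globins the sum was 22.6 to 79.2 and 59.0 to 109. Sums over different probes cannot be compared in level, and the neutrophil sum includes Retnlg, Ltf and Mmp9. Camp, Ngp and Ela2, transcribed in neutrophil precursors, were not well above background on any array.

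Of the monocyte and infiltrating macrophage list, 4 of the 9 tested genes were measured on all 6 arrays, of which Trem2 and Cd68 were called higher and 0 called lower. Another 4 were called higher. Of these, Itgax and Ms4a7 were well above background on 2 of the 3 normal chow arrays, Ccr2 on 1 and Gpnmb on 0, so that these 4 genes entered the fit only through the high-Chol group, where they were high. In mice given Chol, Gpnmb was at least 63.1-fold higher (limma adjusted p = 0.00187), a bound set against the dimmest signal well above background on each normal chow array. Of the resident liver macrophage list, 3 of 10 were called higher (Cd5l, Marco and C1qc) and 0 called lower, and all 10 were higher in value, with a median of 0.66. Resident macrophages take up old red cells and their haemoglobin. T and B lymphocyte markers (12 tested) and liver endothelium (10 tested) had 0 calls, with medians of 0.62 and 0.13. Of the hepatocyte list, 12 genes were tested and 0 called, with a median of -0.32, and Alb1, Fgb and Trf, which encode albumin, a fibrinogen chain and transferrin, were among its brightest. In the cell division list, 1 of 9 was called higher (Mki67). Of all genes, 2.69% were called higher and 0.227% lower. In the list of haemoglobin scavenging, iron and stress erythropoiesis genes, 0 of 11 were called, and Epo was not well above background on any array. Hp and Hpxn, the plasma scavengers of haemoglobin and haem, differed by -0.20 and -0.11 in log2 (limma adjusted p = 0.433 and 0.722). By value 4 of the 11 were higher and 7 lower. The 3 genes with an unadjusted p under 0.05, named after their values were seen, were Gdf15, a stress-induced cytokine, at 2.51, Hmox1, which breaks haem down, at 0.80 and Cd163, the haemoglobin scavenger receptor, at -0.91 (limma adjusted p = 0.0512, 0.128 and 0.154), each without overlap between the diets. Genes picked by a low p will mostly lack overlap, so this adds no support. Of all genes with 6 values, 11.9% were higher and 14.0% lower without overlap.

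The mean level of Hba-a1 and Hbb-b1 was then entered as a covariate of the diet comparison, a fit chosen after the data were seen. It called 22 genes, all among the 488 called without it, and the fitted difference of all 488 kept its sign, with a median of 0.970 of the value without the covariate. S100a9 remained called at 2.77 (SE 0.28, limma adjusted p = 0.0414), as did Gpnmb (limma adjusted p = 0.0251), whose probe was not well above background on any normal chow array. S100a8 was not called in this fit, at 3.12 (SE 0.37, limma adjusted p = 0.0697), while its SE without the covariate was 0.28. The part of blood in the diet differences was not tested.

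Genes were ranked against the mean of the 4 measured members by Pearson's r over the 6 arrays, among 5894 genes well above background on all arrays with an SD of at least 0.3. This mean was highest on high-Chol replicate 2 and normal chow replicate 3, as were the globins, while Alas2 ran the other way. Against it, 25 genes had r above 0.9 (0.424%) and 36 had r below -0.9. The 10 highest were Ms4a4d, Hspa1a, Cxcl4, Odz3, NAP123621-1, TC1532852, Thbd, Rbm15b, Tmem45a and Prkar2b, at r between 0.937 and 0.966, and their deviations from the diet means had r between 0.916 and 0.997 with those of the members. Hspa1a, a heat-inducible chaperone, had the widest spread of the 10, with an SD of 1.40 over the arrays. Against the mean of Hba-a1 and Hbb-b1 alone, a reference chosen after the data were seen, Cxcl4 ranked highest (r = 0.985), followed by Tmem45a (r = 0.980), and 55 genes had r above 0.9. Against Alas2 and Slc4a1, 174 and 324 genes did. Genes with r below -0.9 numbered 79 against the globin mean, 174 against Alas2 and 395 against Slc4a1. These values are a description over 6 arrays that share slides and scaling.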

How the data were processed

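Liver RNA of apoE-KO mice was measured on 6 one-colour arrays, 3 per diet. The authors deposited the scanner output, whose spot intensity had been background-subtracted by Agilent Feature Extraction (version 9.5 on slide 1 and 9.1 on slide 2 per the file headers; 9.1 per the labels) and not normalized between arrays. They also deposited log2 values, 1 per probe and diet, normalized in Gene Spring GX with settings not given in the sources used here; these had no error and served as an alternative only.

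Intensities were log2-transformed and scaled to the 75th percentile over the 43379 spots of an array that were not controls (75th percentile 271 to 373 on slide 1, 762 and 799 on slide 2). Control spots (1639) and outlier flags (75 to 196 per array) were left out, saturated spots (0, and 5 on 1 array) kept. Probes well above background on each array of either diet entered the fit, with a gene given by its brightest probe (16727 genes). Differences between diets were fitted by limma (version 3.58.1, R 4.3.3; lmFit and eBayes without covariates), with Benjamini-Hochberg adjustment over all genes and a threshold of 0.05. The 4 × 44K probes were named by the array design, and 22951 probes matched a RefSeq accession (GRCm38.p6); 181 genes of 15 lists were on the array. Promoter sequences are RefSeq's. On simulated data of 16435 genes for this comparison, 25 of 107 genes changed 2-fold and 78 of 93 changed 4-fold were called, with 4 false calls. Precision is limited by the number of arrays. The p-values measure the spread between these arrays only. Members and lists were chosen with earlier results of these data known. Named genes are the members, the list genes called, examples from the 3 brightest genes per list (probe well above background everywhere), the 10 genes most like the mean of the members, genes never well above background that define a cell type or list, Prtn3 (these also chosen after their values were seen) and those said to be chosen after their values were seen; some genes of the lists are not reported here. Alternatives were a normexp background, median scaling, quantile normalization, other filters and probe rules, a block for slide, omission of each array, array weights, a trended and robust prior, the methods' t-test, run as an alternative and reported only as counts, and the authors' values. Tables were handled with the data.table package, version 1.17.8, pandas 2.3.3, numpy and scipy in Python, and plots drawn with matplotlib.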

Additional observations from a re-analysis of the deposited data

How the results depend on the processing

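The log2 differences of Hba-a1, Hbb-b1, Alas2 and Slc4a1 kept their sign and stayed above an adjusted p of 0.05 under every alternative with a test, with lowest adjusted p-values of 0.128, 0.0874, 0.136 and 0.0989. Unadjusted, p fell under 0.05 in 3 alternatives for Hba-a1, 4 for Hbb-b1, 3 for Alas2 and 5 for Slc4a1, with lowest values of 0.00553, 0.00208, 0.0415 and 0.0162. Their ranges were 0.47 to 1.35 for Hba-a1, 0.68 to 1.64 for Hbb-b1, -0.68 to -0.13 for Alas2 and -0.57 to -0.14 for Slc4a1, whose value in the authors' table was -0.57. With arrays left out, Hba-a1 ranged from 0.47 to 1.35, Hbb-b1 from 0.72 to 1.64, Alas2 from -0.59 to -0.25 and Slc4a1 from -0.42 to -0.26. The count of all genes called, 488, was 0 with the normexp background, 26 with no filter on dim probes, 11 with slide as a block, 3196 with array weights, 5 with the methods' t-test and 22 with adult globin as a covariate, and 42 to 3074 with arrays left out. Leaving out normal chow replicate 1, 2 or 3 gave 262, 42 and 173, and leaving out high-Chol replicate 1, 2 or 3 gave 3074, 105 and 167. The normexp count came from a fit that 11 spots on 3 arrays, with signal minus local background below -100, had shifted; it moved the 75th percentile of normal chow replicate 3 from 384 to 857. At an unadjusted p of 0.05 that fit had 267 genes higher and 39 lower. Without those spots, an alternative chosen after seeing the data, 373 genes were called. The range of Hba-a1 on normal chow, 1.76, was 0.91 with the first normexp fit and not moved beyond the SD by the second, and r of Hba-a1 with Alas2, -0.89, was -0.21 and -0.92. That r was -0.65 with median scaling, -0.84 with quantile normalization and -0.95 to -0.76 with arrays left out. The 6 red cell lists held 0 called genes as reported and 1 with the filter for all arrays (Ubadc1), with probes of a gene averaged (Epb4.9), with a trended and robust prior (Ubadc1) and with every probe by itself, 10 with array weights, and 0 to 6 with arrays left out, the 6 without high-Chol replicate 1. No paired analysis was possible because the titles give the replicate numbers of a diet together and tie none to an array. Scaling to the median moved the median of all genes from -0.02 to -0.26 in log2, and the calls from 450 higher and 38 lower to 333 and 73; at an unadjusted 0.05 the split went from 2064 higher and 1477 lower to 1464 and 2841, and to 1175 and 3311 with the second normexp fit. In the simulated data, 25 of 107 changes of 2-fold were called, which limits what 3 arrays per diet can show.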
